A study of Homo sapiens with 4 samples.

Results

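A set of 31 genes of fatty acid synthesis, elongation and desaturation, triglyceride assembly, lipid droplets and lipolysis was read in 4 RNA sequencing libraries labelled HepG2, a human liver tumour line. The genes were listed by symbol for their place in the pathway, by a rule that uses no measured value, though earlier results of these data were known when the list was made. Of the 31, 30 had a row in the tables, out of 17010 genes in the first pair of libraries and 16860 in the second. THRSP, which encodes a lipogenic nuclear protein, has no row in the tables used here, so its expression was not analysed.

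All cultures carry the same line label. The first pair was transfected with empty vector or with FLAG-JFK; JFK is another name for FBXO42, an F-box protein of SCF ubiquitin ligases. The second pair was treated with control siRNA or with siRNA against ING5, a subunit of histone acetyltransferase complexes. Each group is 1 library, so no difference has a replicate check and no test across genes was possible. The sources used here do not give doses, siRNA sequences or the time of harvest.

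Fatty acids are built in the cytosol from citrate-derived acetyl-CoA by ATP citrate lyase, acetyl-CoA carboxylase and fatty acid synthase, then lengthened by ELOVL elongases and desaturated by SCD and FADS enzymes. Acyl-CoA synthetases activate them, and GPAM, AGPAT, lipin and DGAT enzymes attach them to glycerol, giving triglyceride that is stored in droplets coated by perilipins. Lipolysis runs the other way, from PNPLA2 with its coactivator ABHD5 to LIPE and MGLL. In liver cells the transcription factors SREBP1 and ChREBP switch the synthetic genes on, and AMPK opposes synthesis.

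Promoter windows are shown for SCD and ELOVL1, since these genes of the same arm of the pathway stood in opposite directions under ING5 siRNA (values below). The sequences are from RefSeq, build GRCh38.p14, each read 5′ to 3′ on the gene's own strand from 250 bases before the first listed start. The 109 and 63 bases nearest to that start are left out, because GENCODE 29 places exons of other SCD and ELOVL1 transcripts there. Capitals mark the letters CCAAT, known as the NF-Y box, and GGGCGG, the GC box, on either strand. SCD lies at chr10:100346983-100347123 on the plus strand and ELOVL1 at chr1:43368075-43368261 on the minus strand.
SCD: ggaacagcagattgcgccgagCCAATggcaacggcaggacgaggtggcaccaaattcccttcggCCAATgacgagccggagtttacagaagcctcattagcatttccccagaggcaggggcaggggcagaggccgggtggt
ELOVL1: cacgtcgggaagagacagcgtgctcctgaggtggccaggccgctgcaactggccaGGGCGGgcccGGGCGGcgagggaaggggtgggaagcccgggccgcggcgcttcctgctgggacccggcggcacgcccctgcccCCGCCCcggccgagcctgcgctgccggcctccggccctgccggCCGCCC

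The SCD window held the NF-Y letters 229 and 186 bases before the start, and its part left out held GC box letters 33 and 11 bases before it. In ELOVL1 the GC box letters began 195, 185, 112 and 69 bases before it. In the ELOVL1 window CCAAT began 65 bases before the start, overlapping the last GC box letters shown and running on into the part left out, which held a further GC box match 38 bases before the start. No window was used for FASN, MGLL, DGAT1, DGAT2 and PNPLA3, and that of THRSP is among the 26 read. Over the full 250 bases, 8 of these 26 lipid gene windows held CCAAT (30.8%), against 33% of 27305 windows of that length, 1 a gene. GGGCGG stood in 19 of 26 (73.1%) against 42.3%, the palindromic E-box letters CACGTG in 2 (7.69%) against 6.49%, TATAAA in 1 (3.85%) against 11.1%, and the sterol element letters TCACNCCAC in 1, PNPLA2 (3.85%), against 0.875%. All were sought on both strands, and a match of letters is a description and not a binding site. The 27305 windows were not limited to genes expressed here, so these shares do not set the lipid genes apart from other expressed genes.

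Reads assigned to genes came to 7179585 and 7237325 in the first pair and 9196979 and 9030075 in the second. ING5 had 81 counts under its siRNA against 144, and FBXO42 had 115 in the library labelled JFK against 116 in vector, so the label's overexpression does not show in that transcript and the library is named by its label throughout. Of 23 hepatocyte marker genes, 3 reached 20 counts in each library: CPS1, FOXA1 and HNF4A. CPS1 had 22654, 22227, 46771 and 41314 counts in the order vector, JFK, control siRNA and ING5 siRNA. ALB, APOA2, TTR, TF and FOXA2 have no row in the tables used here, and AFP, SERPINA1 and APOB had at most 1, 7 and 1 counts where listed. The genes with no row were not analysed. AFP, SERPINA1 and APOB thus go against the HepG2 label, while the CPS1 counts do not. The identity of the line was not tested, and the libraries are called by their labels only. Of 12 adipocyte markers, CFD alone reached 20 counts, and the list summed to 51.7 and 59.3 CPM (counts scaled to the library total) in the first pair and to 11.2 and 9.30 in the second, controls first; its part in the results was not tested. The macrophage list summed to 183.5, 185.0, 61.9 and 50.9 in that order, led by CD68 with 1183, 1247, 550 and 437 counts. LYZ had 115, 72.2, 13 and 13, while PTPRC had 8, 7, 1 and 1. CSF1R had 8, 9, 4 and 5, and CD14 4, 4, 1 and 4. The breast and keratinised epithelial list summed to 4222, 4682, 691 and 492, led by KRT17 and KRT7. The hepatocyte list summed to 3219, 3137, 5150 and 4630, led by CPS1. The part of these lists was not tested either, and in bulk RNA fewer cells of a type and less RNA per cell cannot be told apart.

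Per unit length, SCD was the most abundant lipid transcript in all 4 libraries. SCD, the stearoyl-CoA desaturase that makes oleate, had 355 and 337 FPKM in the first pair, control first, and 449 and 586 RPKM in the second. FPKM and RPKM are reads scaled to gene length and library depth. SCD thus stood within the top 1.16% of the listed genes in each library. ACLY, ATP citrate lyase, was next, at 152 and 157 FPKM and at 119 and 126 RPKM. FASN, ACSL3, FADS1, ELOVL5, PLIN3 and MGLL were among the 9 highest of these genes in every library, in an order that differed between the pairs.

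At the other end, the transcript of the main droplet coat protein in most cells, PLIN2, had 1 count in vector, 1 with JFK, 0 in control siRNA and 2 in ING5 siRNA. Its relative PLIN3, a coat protein that moves between cytosol and nascent droplets, had 1157 and 1307 expected counts and 627 and 747 counts in the same order. PLIN3 therefore held at least 99.7% of the summed per-length level of the 2 perilipins in every library. CIDEC, which fuses droplets in fat cells, had at most 1.04 counts, and LIPE, hormone-sensitive lipase, had 3, 1, 1 and 5. These 3 genes lie at or close to 3 counts, a floor of 0.326 to 0.418 CPM, and no fold is given for PLIN2 and CIDEC.

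MLXIPL, which encodes ChREBP, had 28 and 17 counts in the first pair and 15 and 14 in the second. Other genes at low levels were ACSL1 with 42, 35, 21 and 32 counts, ACSL5 with 30, 28, 22 and 19, and PNPLA3, a droplet lipase of the PNPLA2 family, with 42.9, 41.2, 57 and 65. A gene was called measured where its mean scaled count in the pair reached 20. That left 27 lipid genes in the first pair and 26 in the second, MLXIPL being below it there.

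**Figure D1:**
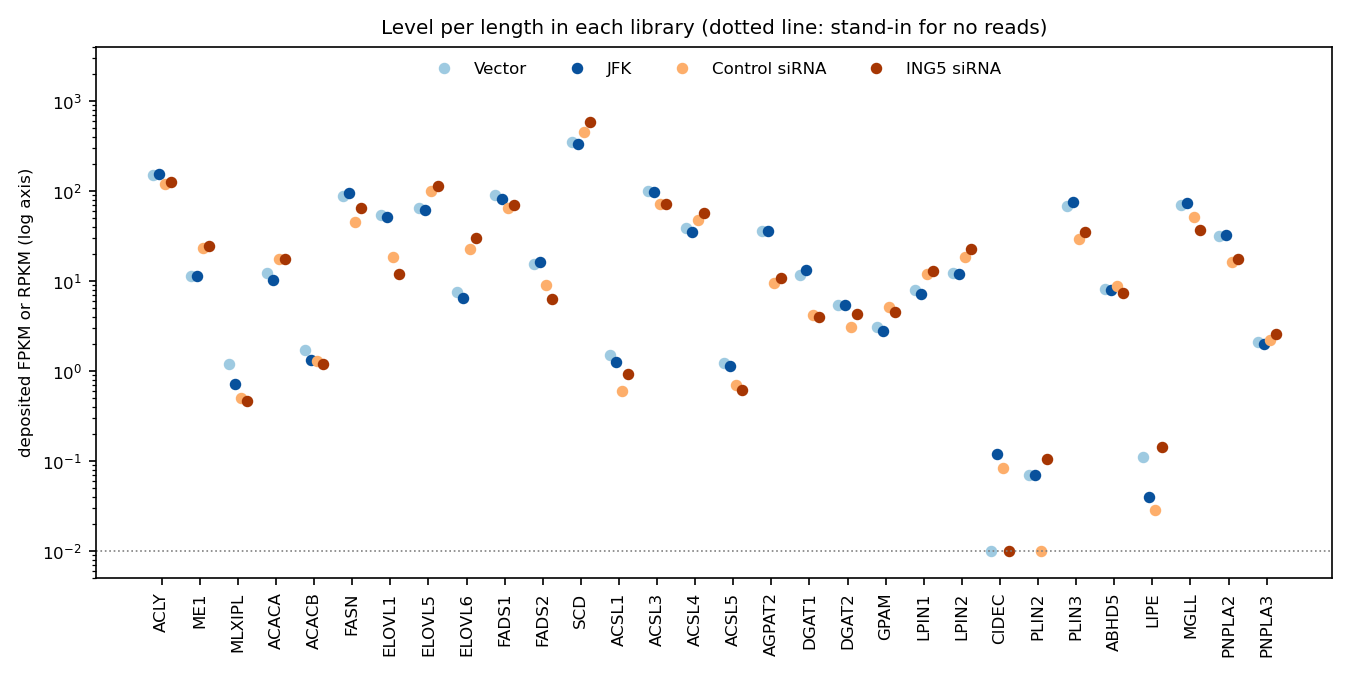
Deposited FPKM (first pair) or RPKM (second pair) of the 30 lipid genes with a row, 1 point a library, on a log axis, grouped by role from synthesis to lipolysis. SCD stands highest in every library and PLIN2, CIDEC and LIPE lie lowest; the dotted line marks 0.01, the stand-in for genes with no reads.

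Within families 1 member usually carried most of the per-length level. ACACA, the cytosolic acetyl-CoA carboxylase of lipogenic tissue, held 87.7% to 93.5% of the carboxylase level, and ACACB, the form at the mitochondrial surface that limits fatty acid oxidation, the rest. ACSL3, the synthetase of nascent droplets, held 70.8% and 72.1% in the first pair and 59.1% and 54.6% in the second. Most of the remainder was ACSL4, which prefers arachidonate, at 27.3%, 26.1%, 39.8% and 44.2% in the order vector, JFK, control siRNA and ING5 siRNA. FADS1, the delta-5 desaturase, held 83.4% to 91.7% against FADS2, the delta-6 desaturase.

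The elongases were divided unlike each other in the 2 pairs. ELOVL1, which lengthens saturated very long chains, held 42.8% of the summed level of the 3 listed elongases in each library of the first pair, but 13.2% in control siRNA and 7.65% in ING5 siRNA. ELOVL6, which takes palmitate to stearate, held 5.88%, 5.36%, 16.2% and 19.2% in the same order. ELOVL5, which lengthens polyunsaturated chains, made up the rest, 51.3% to 73.1%. Between the diacylglycerol acyltransferases, DGAT1 held 68.7% and 71.3% in the first pair, 57.4% in control siRNA and 48.1% in ING5 siRNA, where DGAT2 was the larger.

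**Figure D2:**
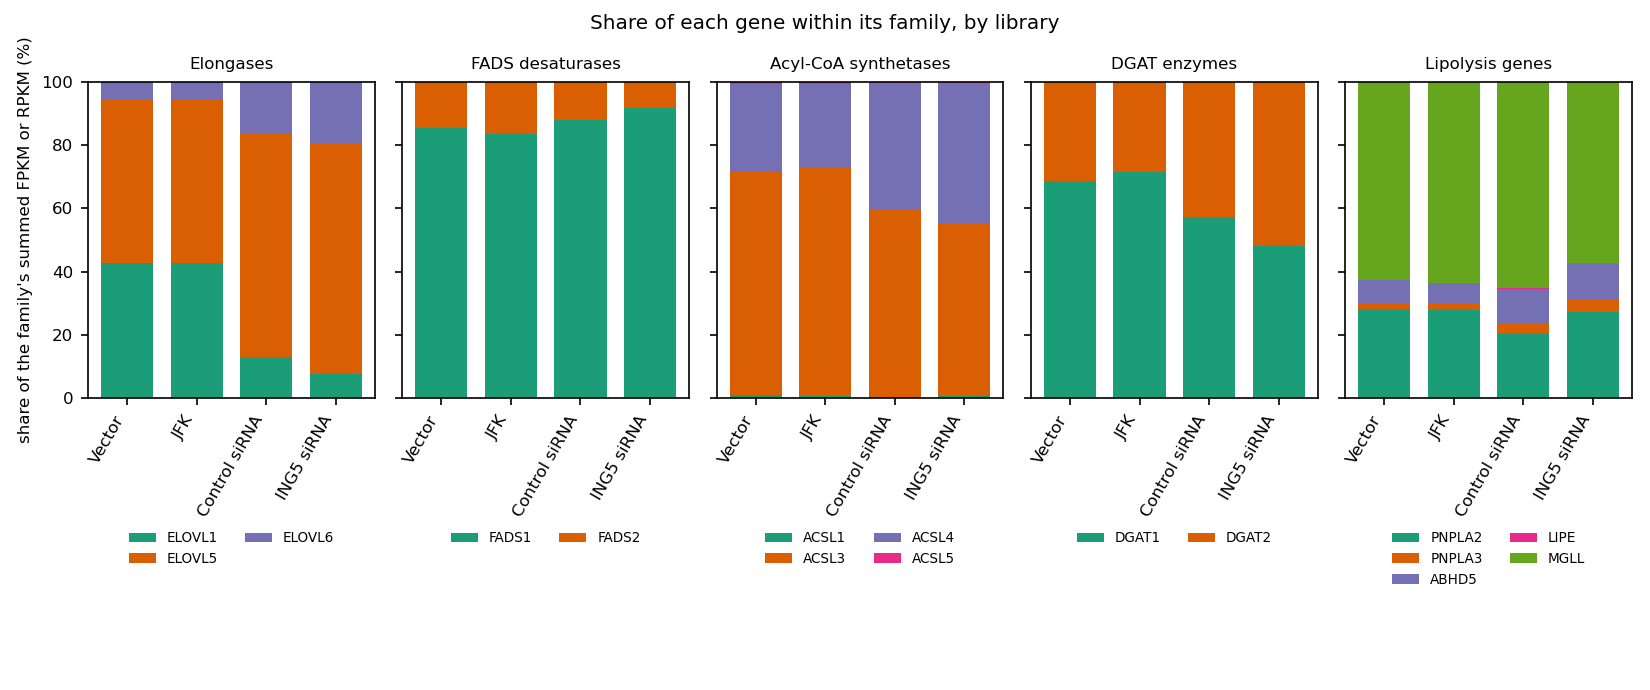
Share of each gene in its family's summed FPKM or RPKM, in percent, for 5 families, with 1 bar for each of the 4 libraries. The ELOVL1 share is 42.8% in both libraries of the first pair and 13.2% and 7.65% in the second, and the DGAT1 share falls below 50% in ING5 siRNA only, at 48.1%.

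The control libraries of the pairs differed more than the libraries within a pair. Control siRNA and vector were at least 1.5-fold apart for 18 of 27 lipid genes (66.7%), against 58% of 12022 genes measured in both, with a median size of 0.78 on the log2 scale for the lipid genes and 0.71 for all. Within the pairs the median size for the lipid genes was 0.09 (JFK) and 0.21 (ING5 siRNA). ELOVL6 was 3.58-fold and ME1, malic enzyme, 2.28-fold higher in control siRNA, while AGPAT2 stood at 0.299-fold, DGAT1 at 0.392-fold and ELOVL1 at 0.404-fold of vector. The tables of the pairs were made separately, with other gene lengths and another kind of count, so treatment, culture and processing cannot be told apart in this comparison. The pairs are therefore compared only within themselves below. The separate controls also mean that the comparisons share no library.

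The second pair asks which of these transcripts differ with ING5 siRNA. Among the synthetic genes FASN stood at 1.45-fold, SCD at 1.30-fold and ELOVL6 at 1.32-fold of control siRNA, while the abundant ACLY, ELOVL5 and FADS1 stood at 1.07-fold, 1.16-fold and 1.08-fold. ELOVL1, FADS2 and the lipase gene MGLL stood lower, at 0.649-fold, 0.701-fold and 0.720-fold. Of the 26 measured, 16 lay above 0 on the log2 scale and 10 below, with a median of 0.11, from −0.62 to 0.61. All 11634 genes measured had a median of −0.01 with 48.6% above 0.

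By the call used here, a difference of at least 1.5-fold, 1 lipid gene was higher and 1 lower, against 4.01% and 4.4% of all genes measured. These shares are near the background. The gene called higher, ACSL1, had 32 counts against 21, and its interval ran from −0.22 to 1.49. The gene called lower was ELOVL1. A second reading counts genes whose exact 95% Clopper-Pearson interval, computed from both counts of a gene, lies wholly on 1 side of 0. These intervals cover counting error only, and they take reads as independent molecules, which reads are not. Variation between cultures or libraries is left out, since each group is 1 library. By it, 10 lipid genes lay above control siRNA, where 18.3% of all genes did, and 4 lay below, where 20.6% did. Such intervals are narrower for abundant genes, and the lipid genes had a median scaled count of 664 against 320 for all genes. At a mean scaled count of at least 100, 9 of 22 lay above against 20.5% of all genes, and 4 below against 24.2%. That floor, here and below, does not match the lipid genes to the others in count. Depth may therefore still differ between these shares.

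**Figure D3:**
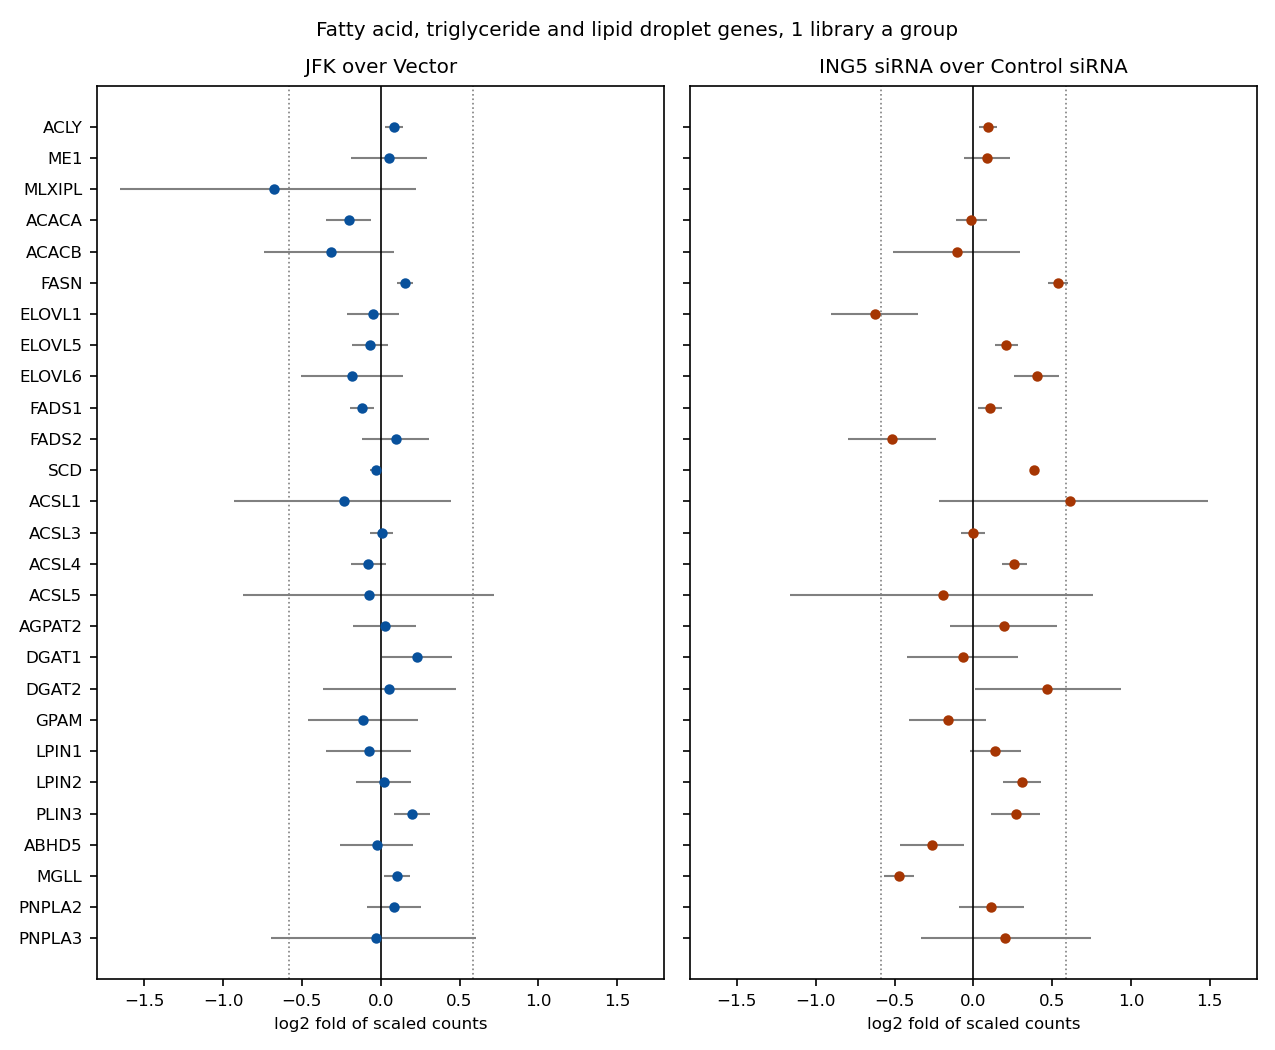
Log2 fold of scaled counts for the lipid genes measured, with the exact 95% counting interval as bars, in the library labelled JFK over vector (left) and ING5 siRNA over control siRNA (right); dotted lines mark 1.5-fold. FASN, SCD, ELOVL6 and LPIN2 lie above 0 on the right and ELOVL1, FADS2 and MGLL below, while no gene with a narrow interval passes 1.5-fold on the left. MLXIPL is not drawn on the right, where it was not measured.

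In the supply and synthesis steps, FASN, fatty acid synthase, had 5027 counts in ING5 siRNA and 3505 in control siRNA (log2 fold 0.54, interval 0.47 to 0.60). ACLY had 5125 against 4860, a difference of 0.09 (0.04 to 0.15). ACACA, whose product is the substrate of FASN, had 1695 against 1729 (−0.01, interval −0.11 to 0.08). FASN thus stood higher without a like difference in the carboxylase before it. ACACB had 102 against 111, and ME1, a source of NADPH, had 789 against 752, both with intervals that include 0.

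Desaturation and elongation genes divided. SCD had 29187 counts against 22617 (0.38, interval 0.36 to 0.41), ELOVL6 had 935 against 715 (0.40, 0.26 to 0.55) and ELOVL5 had 3273 against 2865 (0.21, 0.14 to 0.28). ELOVL1 had 179 against 279 (−0.62, interval −0.90 to −0.35). FADS2 had 180 against 260 (−0.51, −0.80 to −0.23) while FADS1 had 2814 against 2647 (0.10, 0.03 to 0.18). All 6 genes of this step had intervals that exclude 0, 4 above and 2 below. All 6 have a mean scaled count of at least 100, where 20.5% of all genes lay above and 24.2% below. FADS1 and FADS2 lie on opposite strands and share 142 exon bases in GENCODE 29, and the sources used here do not say whether reads were counted by strand.

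Among the acyl-CoA synthetases, ACSL4 had 2810 counts against 2371 (0.26, interval 0.18 to 0.34), and ACSL3 had 2835 against 2873, a difference of 0.00 (−0.08 to 0.07). In triglyceride assembly LPIN2, a phosphatidate phosphatase, had 1307 against 1067 (0.31, 0.19 to 0.43). DGAT2, which uses newly made fatty acids, had 96 against 70 (0.47, 0.01 to 0.94), an interval that reaches 0 with median-of-ratios scaling. GPAM, the first acyltransferase of the pathway, had 265 against 300, AGPAT2, the second, 156 against 138, LPIN1 668 against 613 and DGAT1 134 against 142. The intervals of these 4 genes include 0.

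PLIN3 had 747 counts against 627 (0.27, interval 0.11 to 0.42). In lipolysis, MGLL, which cleaves monoglyceride in the last step, had 1576 against 2212 (−0.47, −0.57 to −0.38), and ABHD5, the coactivator of adipose triglyceride lipase, had 362 against 439 (−0.26, −0.47 to −0.06). The lipase gene itself, PNPLA2, had 395 against 369 (0.11, −0.09 to 0.32) and PNPLA3 had 65 against 57 (0.20, −0.33 to 0.74). LIPE, which is below the level called measured, had 5 counts against 1 (1.89, −0.82 to 7.90), which is within counting error. So the coactivator and the last enzyme stood lower while the initiating lipase did not differ beyond counting error.

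All 30 listed lipid genes together took 0.562% of counts in control siRNA and 0.673% in ING5 siRNA. SCD alone was 43.8% and 48% of these counts. Without SCD and FASN the shares of all counts were 0.278% and 0.294%. Most of the gap between the sums thus lay in the counts of SCD and FASN.

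The first pair asks which of these transcripts differ with the JFK plasmid. Differences among lipid genes were small: FASN stood at 1.11-fold, PLIN3 at 1.15-fold, DGAT1 at 1.17-fold and ACACA at 0.870-fold of vector. Of 27 measured, 12 lay above 0 and 15 below, with a median of −0.03, from −0.68 to 0.23. All 12107 genes measured had a median of 0.00 with 50.5% above 0. The median size of a lipid gene's difference, whatever its sign, was 0.09 against 0.15 for all genes.

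None of the 27 was at least 1.5-fold higher, where 1.5% of all genes were, and 1 was at least 1.5-fold lower, where 2.07% were. The latter was MLXIPL, with 17 counts against 28 (−0.68, interval −1.66 to 0.22). Intervals lay wholly above 0 for 5 lipid genes, against 14.3% of all genes, and wholly below for 2, against 11.2%. At a mean scaled count of at least 100 these were 5 and 2 of 22, against 17.3% and 13% of all genes. With scaling by the total count alone the 5 became 2 (FASN and PLIN3) and the 2 became 4 (ACACA, FADS1, SCD and ACSL4).

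By role, FASN had 5960 counts against 5450 (0.15, interval 0.10 to 0.21), and ACLY 5111 against 4895 (0.09, 0.03 to 0.14). ACACA had 753 expected counts against 881 (−0.20, −0.34 to −0.06), opposite to FASN, and ACACB had 91.5 against 115.7 (−0.31, −0.74 to 0.08). Any error in deriving expected counts that are not whole, as for ACACA, FADS1 and PLIN3, is outside these intervals. SCD had 13557 against 14095 (−0.03, −0.07 to 0.0023) and FADS1 had 2643 expected counts against 2916 (−0.12, −0.19 to −0.04). ELOVL1 had 573 against 603, ELOVL5 1235 against 1315, ELOVL6 151 against 174 and FADS2 373 against 355. The intervals of these last 4 genes include 0. The SCD interval lay wholly below 0 with median-of-ratios scaling (−0.04) and with scaling by the total count (−0.07).

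PLIN3 had 1307 expected counts against 1157 (0.20, interval 0.08 to 0.32). DGAT1, the acyltransferase that re-esterifies fatty acids in the endoplasmic reticulum, had 366 against 317 (0.23, 0.01 to 0.45). DGAT1 shares 139 exon bases with HSF1 on the other strand in GENCODE 29. MGLL had 2356 against 2229 (0.10, 0.02 to 0.19). The other acyltransferases, lipins and lipases were within counting error: GPAM had 132 against 145, AGPAT2 404 against 404, LPIN1 223 against 239, LPIN2 549 against 551, DGAT2 97 against 95, PNPLA2 579 against 555 and ABHD5 310 against 321. ACSL3 had 3095 against 3136 and ACSL4 1323 against 1420, ME1 had 293 against 287, and none of these differed beyond counting error either.

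**Figure D4:**
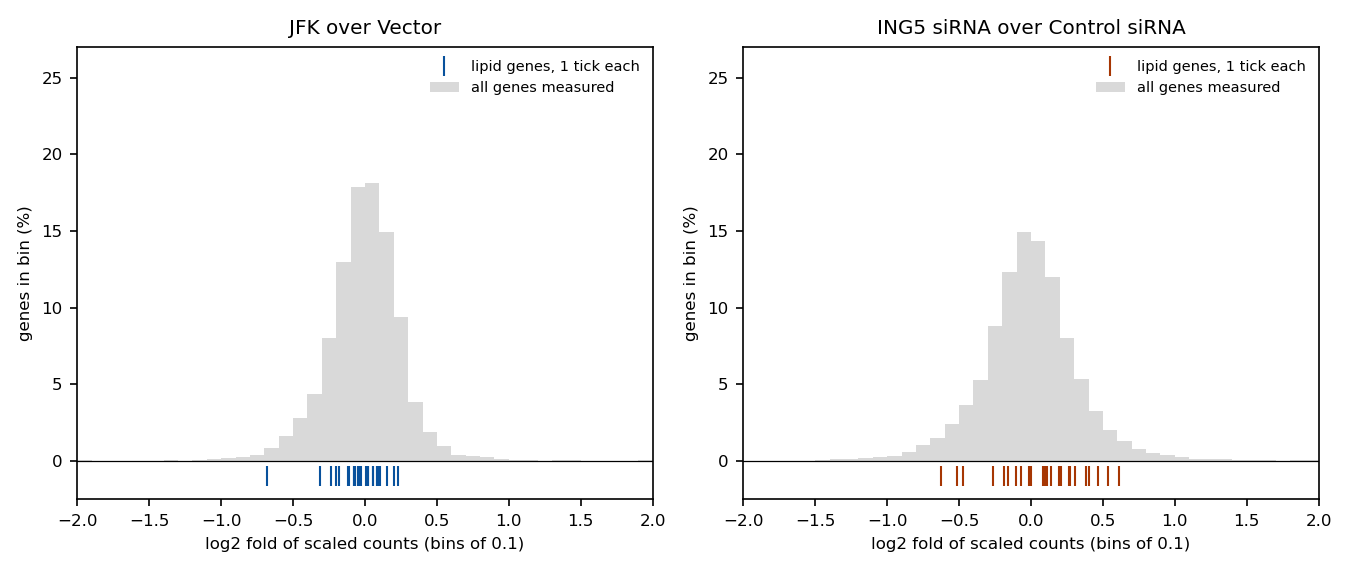
Distribution of log2 folds over all genes measured (grey bars, percent of genes in bins of 0.1) with 1 tick for each lipid gene, in the library labelled JFK over vector (left) and ING5 siRNA over control siRNA (right). The ticks on the left crowd around 0 apart from MLXIPL at −0.68, and those on the right run from −0.62 to 0.61.

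Side by side, 26 lipid genes were measured in both comparisons. They lay on the same side of 0 in 14, 8 higher in both and 6 lower in both, which is 53.8% against 49.7% of all 11148 genes measured in both. FASN and PLIN3 had intervals above 0 in each comparison with every scaling used. ACLY did so too, except for JFK with scaling by the total count. The share of all genes with intervals off 0 in both comparisons was not counted. FADS1 (−0.12 and 0.10) and MGLL (0.10 and −0.47) had intervals on opposite sides of 0, the value for JFK given first. The JFK interval of MGLL included 0 with scaling by the total count. The difference between the comparisons was not tested.

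The other genes of the pathway were read from 8 lists. In ING5 siRNA, AMPK subunits stood on both sides of 0: the catalytic subunit genes PRKAA1, with 2231 counts against 3535 (−0.65, interval −0.73 to −0.57), and PRKAA2, with 1037 against 1441 (−0.46), and the regulatory PRKAB1, with 137 against 208 (−0.58), were lower, and PRKAB2 was higher, with 637 against 533 (0.27). The insulin receptor gene INSR had 345 against 266 (0.39). Of the 15 measured genes of that list on AMPK, insulin and mTORC1, 0 were called higher and 1 lower, PRKAA1, where 4.01% and 4.4% of all genes were. In the library labelled JFK 0 of 16 were called in either direction, against 1.5% and 2.07% of all genes. PRKAA1 had 743 expected counts there against 990 (−0.39, −0.53 to −0.25), and PRKAB2 had 185 against 234 (−0.31, −0.60 to −0.03), opposite in sign to its value under ING5 siRNA.

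Among 27 transcription regulators, 1 was called higher and 1 lower under ING5 siRNA, INSIG1 and PPARGC1A, shares near the 4.01% and 4.4% of all genes. INSIG1, which retains SREBP in the endoplasmic reticulum and is itself a target of SREBP, had 4716 counts against 2849 (0.74, interval 0.68 to 0.81). SREBF1, the gene of SREBP1, had 621 against 831 (−0.40, −0.56 to −0.25). PPARGC1A, a coactivator of oxidative genes, had 188 against 328 (−0.79, −1.05 to −0.52), and PPARA, its partner in fatty acid oxidation, had 550 against 372 (0.58, 0.39 to 0.77). In the library labelled JFK, 0 of 27 were called in either direction, against 1.5% and 2.07% of all genes. There the SREBP escort gene SCAP had 831 against 674 (0.33, 0.18 to 0.48) and SREBF2 lay at 0.15 (0.06 to 0.23), while MBTPS2, which encodes a protease that releases SREBP, lay lower with 817 against 972 (−0.23, −0.36 to −0.09).

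Mitochondrial fatty acid synthesis, a separate route that supplies lipoic acid, had 1 of 8 genes called higher and 2 lower under ING5 siRNA, where 4.01% and 4.4% of all genes were. NDUFAB1, its acyl carrier protein, had 140 counts against 395 (−1.48, interval −1.77 to −1.20). LIAS, lipoic acid synthase, had 61 against 104 (−0.75, −1.23 to −0.28), and HSD17B8 had 68 against 41 (0.74, 0.17 to 1.34). In the other pair NDUFAB1 lay at 0.02, within counting error, and LIAS was the 1 of 8 called lower (−0.62, −1.26 to −0.0047), where 2.07% of all genes were.

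Other elongation genes included HACD2 and HACD1, dehydratases of the elongation cycle, with 425 against 607 (−0.50) and 280 against 383 (−0.44) under ING5 siRNA. ELOVL2, called higher, had 114 against 69 (0.74, interval 0.30 to 1.19), so 1 of 8 was called higher and 0 lower, against 4.01% and 4.4% of all genes. Of 14 other glycerolipid assembly genes, 0 were called higher and 1 lower, against those same shares: AGPAT5, an acyltransferase, with 389 against 677 (−0.78). CDS2, which makes CDP-diacylglycerol, lay at −0.58 with 426 against 645. In the library labelled JFK none of the 8 elongation genes measured there, ELOVL7 in place of ELOVL2, and none of the 14 assembly genes was called, where 1.5% of all genes were called higher and 2.07% lower. AGPAT5 lay at −0.47 there (−0.85 to −0.09).

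Of the other droplet and lipolysis genes 18 were measured in each comparison, BSCL2 in the first pair only and HSD17B13 in the second only, and none was called in either. All genes were called higher or lower in 4.01% and 4.4% under ING5 siRNA and in 1.5% and 2.07% in the library labelled JFK. HILPDA, a droplet protein that inhibits PNPLA2, had 500 counts against 340 under ING5 siRNA (0.57, interval 0.37 to 0.78). DDHD2, a triglyceride hydrolase, lay at 0.37. Of 6 genes of fatty acid uptake 1 was called higher under ING5 siRNA, the receptor gene VLDLR, with 227 against 142 (0.69, 0.38 to 1.01), and SLC27A2, a very long chain acyl-CoA synthetase, had 1020 against 756 (0.45). In the library labelled JFK the 1 of these 6 called higher was SLC27A1 (0.67, 0.09 to 1.31). Of 14 genes of acetyl-CoA and NADPH supply none was called in either comparison, and IDH1, cytosolic isocitrate dehydrogenase, lay at −0.31 under ING5 siRNA and −0.13 in the library labelled JFK.

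**Figure D5:**
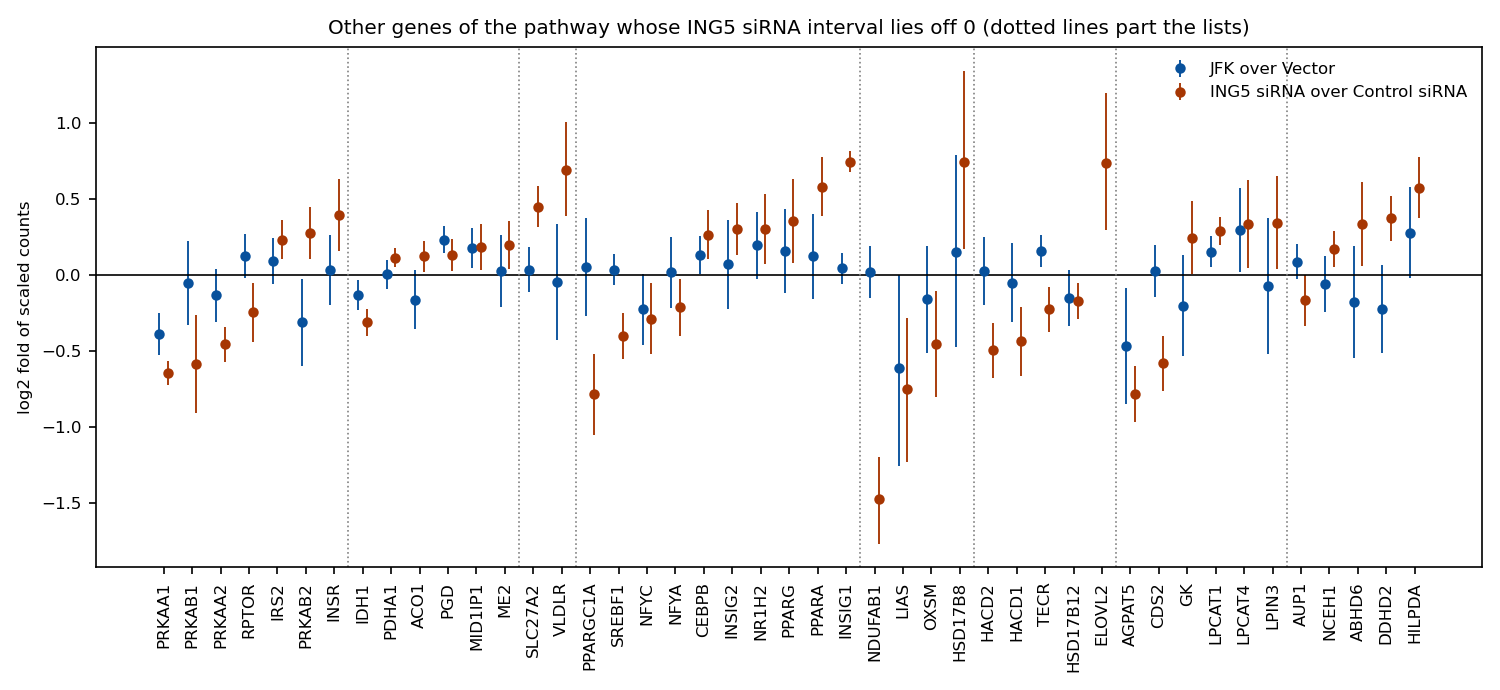
Log2 fold of scaled counts, with exact 95% counting intervals, for the other pathway genes whose interval under ING5 siRNA excludes 0, in both comparisons; dotted lines part the lists. NDUFAB1 lies lowest at −1.48 and INSIG1 at 0.74 with a narrow interval, while in the library labelled JFK both lie near 0. No second point is drawn for a gene not measured in the first pair.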

How the data were processed

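Trizol-isolated RNA was sequenced on a HiSeq machine, per the labels. The submitters' processing notes name FastQC, fastp, STAR and DESeq2 and the builds GRCh37 and hg19; the sources used here give no roles, versions or read counter. Per the file headers, the first pair of tables holds deposited expected counts (68.6% and 69% whole within 0.001) and deposited FPKM, and the second deposited counts and deposited RPKM, with 0.01 for no reads. Entrez identifiers were matched to RefSeq symbols of a later build: 16900 matched and 110 did not in the first pair, 16767 and 89 in the second. Repeated identifiers (2) and a blank count (1) were left out.

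Counts were scaled within each pair with TMM factors (edgeR 4.0.16, R 4.3.3; trims 0.3 and 0.05), 0.5 was added and log2 ratios were taken (numpy 2.4.6, scipy 1.17.1 and pandas 2.3.3 under Python 3.11.15; plots with matplotlib 3.10.9). Intervals used counts rounded to whole numbers, and any error in deriving the expected counts of the first pair is outside them. The script was tested on simulated counts. Named genes are the lipid genes, label checks, markers and, from each pathway list, up to 3 measured genes at each end whose interval excludes 0 and any at least 1.5-fold apart; some of these are not reported here. The members and lists were chosen with earlier results of these data known. Promoter windows and exon overlaps come from tables of GRCh38, not of the study's build.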

Additional observations from a re-analysis of the deposited data

How the results depend on the processing

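Alternatives were median-of-ratios or total-count scaling, ratios of FPKM or RPKM, no filter or a mean of at least 100, 5 added counts, only genes whose count and FPKM or RPKM imply each other within 2%, and only whole counts. Without a filter, genes at or near 0 counts enter, and the lipid genes at least 1.5-fold apart became 1 higher and 2 lower in the library labelled JFK, and 3 higher and 2 lower under ING5 siRNA. At a mean of at least 100, and also with 5 added, the 1 lower in the former became 0 and the 1 higher in the latter became 0, since MLXIPL and ACSL1 have few counts. Intervals, an alternative added after seeing the data, were recounted under both scalings and both filters: in the library labelled JFK total-count scaling gave 2 above 0 and 4 below, against 5 and 2. Medians ran from −0.07 to 0.01 for JFK and from 0.09 to 0.12 for ING5 siRNA, so the former changed sign with whole counts only. Of the single-gene values, all 204 for ING5 siRNA and 202 of 204 for JFK stayed within their counting intervals. Both exceptions are SCD, at −0.07 with total-count scaling and −0.08 by FPKM. The filters and the limits to certain genes only choose genes and leave each value unchanged. Values under those settings could not move, so only the scalings, the FPKM or RPKM ratios and the 5 added counts bear on single genes. No paired analysis was possible because each group has 1 library, and for the same reason no library could be left out. For ACSL1, with 32 and 21 counts and an interval of −0.22 to 1.49, the difference called is within counting error.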
